A study of Mus musculus with 39 samples.

Results

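This account covers the deletion of Alk1 in the endothelium of newborn mice that received no further treatment: 5 mutant and 5 wild-type RNA libraries, 10 of the 39 in the series. Its members are all genes of the Alk1 expression table, 24972 in number, of which 13655 reached a normalized value of at least 20 in at least 5 of the 10 libraries and were tested. The libraries were chosen by their genotype label and the genes by their presence in that table.

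ALK1 is a receptor kinase of endothelial cells, encoded by Acvrl1. It binds the circulating ligands BMP9 and BMP10 together with the co-receptor endoglin (Eng) and the receptor BMPR2, and it phosphorylates SMAD1, SMAD5 and SMAD9, which enter the nucleus with SMAD4. Mutations of ACVRL1, ENG or SMAD4 cause hereditary haemorrhagic telangiectasia, an inherited disease in which arteries connect directly to veins. The SMADs of this pathway drive genes such as Id1, Id3 and Tmem100, and signalling through the receptor is known to hold back vessel growth and to help endothelial cells keep their arterial identity.

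The wild types were Alk1f/f and the mutants Alk1f/f; Cdh5-CreERT2, both on C57BL/6. Every pup of this cohort was given 100 µg tamoxifen on postnatal day 4 and was killed on postnatal day 6. Cdh5-CreERT2 places a tamoxifen-activated recombinase under an endothelial promoter, so the floxed gene is lost in endothelial cells after tamoxifen. No wild type carried the recombinase, so the effect of the recombinase itself and that of the deletion cannot be told apart. Brain endothelial cells were captured with beads that bind PECAM1, and their messenger RNA was sequenced. The cohorts compared below were deleted for Smad4 or Eng by the same driver, with 5 mutants and 5 floxed wild types each. They were given 300 µg tamoxifen on postnatal days 1 to 3 and were killed on day 7, so the deleted gene, the dose, the time since deletion and the age cannot be told apart between cohorts. The labels do not say that each library came from a different pup, so the p-values measure the spread between libraries, which may be partly technical.

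The Acvrl1 values did not check the genotypes. They were 14617, 16755, 15828, 15197 and 14197 in the wild types and 13266, 15809, 15587, 13658 and 12441 in the mutants, always in the order of libraries 1 to 5. The groups overlapped, and the log2 change, mutant minus wild type, was -0.12 ± 0.08 (SE, adjusted p = 0.279). Acvrl1 lies on chromosome 15 between 101128522 and 101145336 (mm10, forward strand), the labels do not name the exons between the loxP sites, and the table gives 1 value for the whole gene. Transcripts that lack the deleted exons may still be counted in it.

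The capture gave endothelial RNA. The 15 endothelial markers summed to between 709788 and 792461 in the wild types and between 619350 and 686452 in the mutants. By limma's test 4 of the 15 rose and 4 fell (17.5% and 15.7% of all tested genes), with a median log2 change of -0.10. With each library divided by its total 3 rose and 7 fell. Pecam1, which encodes the protein the beads bind, was higher in the mutants by 0.33 on the log2 scale. Cdh5 was higher by 0.22 (not called without 8 of the 10 libraries in turn, adjusted p from 0.0537 to 0.106), while Tek was lower by 0.86. In the same libraries 8 smooth muscle markers summed to 8296 to 9872 in the wild types and 5026 to 7149 in the mutants. For 12 pericyte markers the sums were 94292 to 119300 and 64231 to 121941.

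Libraries 4 and 5 of each genotype carry a code, L219, in their names and libraries 1 to 3 do not. The 4 coded libraries held more RNA of neurons and glia (mean log2 level 7.325 to 8.44) than the 6 uncoded ones (6.249 to 6.826), and the code was balanced over genotypes. The values sum to between 32280000 and 37710000 per library. If the commonest low value of a library is worth 1 read, the libraries hold between 11600000 and 30200000 counted fragments, although only 40.4 to 70.5% of low values lay within 0.05 of a whole multiple of it, so depth is known only roughly. Mutant libraries 1 and 3 stood apart from the other mutants. In mutant 1 the glucocorticoid-responsive genes had a median only 0.3066 above the wild-type mean (log2), against 1.096 to 2.263 in the other 4 mutants. Mutant 3 had the highest immediate early genes, with a median 2.12 above the wild-type mean, and choroid plexus markers 1.957 below it. Group counts that moved by more than 1.5 times without either library are given both ways.

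Across the genome, 4541 of 13655 genes (33.3%) passed the test, limma's moderated test on log2(value + 2) with a Benjamini-Hochberg adjusted p under 0.05. Of these, 2392 (17.5%) were higher and 2149 (15.7%) lower in the mutants, and 812 genes (5.95%) were called with a change of at least 2-fold. Where each library was divided by its total, by which the median log2 change over all genes was -0.08 rather than -0.01, the share of higher genes among the calls went from 52.7% to 41.1% (13.7% of all genes higher and 19.6% lower). The 6 uncoded libraries alone called 14.6% of all genes (8.41% higher and 6.19% lower), the fit without mutant 1 35.7% and that without mutant 3 30.6%. With the replicate number of libraries 1 to 3 as a block, 2155 genes were called in those 6 libraries and 5953 (43.6%) over all 10. Of the tested genes 386 reached the filter through 1 genotype, with at most 2 libraries of the other at 20 or more. They hold 117 of the calls (2.58%), and such a gene is described below without a test. The 5 mutant and 5 wild-type values did not overlap for 3346 genes (24.5%). Mutant 1 lay beyond every wild type, on the side of the call, for 84.9% of the called genes, and the other mutants for 93.5 to 96.1%. All shares of gene groups below are to be read against these rates. The groups were chosen with earlier results of these data known, so their shares are descriptions and not independent support.

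**Figure D1:**
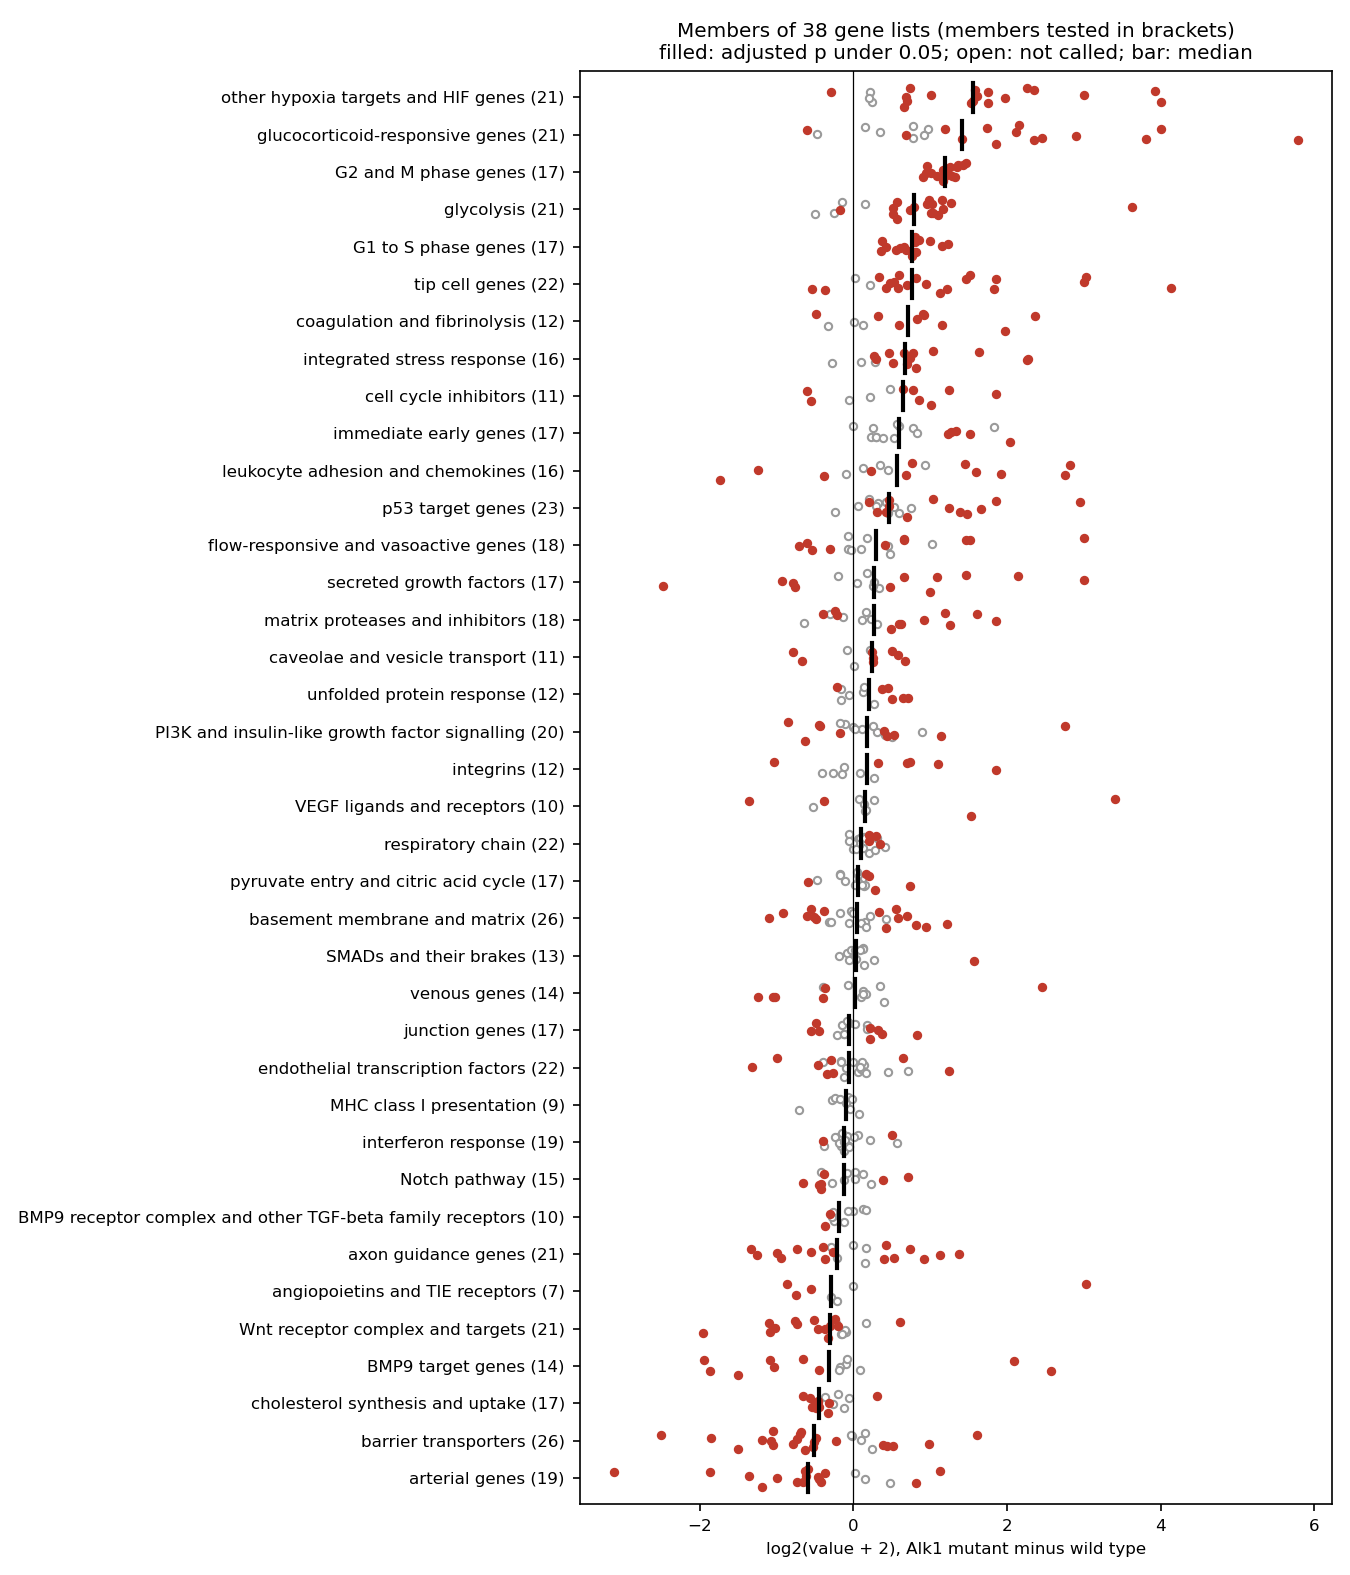
Log2 change, mutant minus wild type (horizontal axis), of the tested members of 38 gene groups, sorted by group median. Filled points passed the test, open points did not, and the bar marks the median. The cell cycle, hypoxia and glycolysis groups lie to the right of 0, and the arterial and barrier transporter groups to its left.

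The receptor complex itself moved little, and among the SMADs Smad1 passed the test. Of 10 type I and type II receptors and co-receptors tested, none rose and 2 fell by limma's test, with a group median of -0.18; none was higher and 4 were lower at an unadjusted p under 0.05. Eng, the co-receptor that presents BMP9, measured 44542, 58098, 49444, 48122 and 49526 in the wild types and 38282, 46981, 36124, 38083 and 35033 in the mutants, a change of -0.36 ± 0.10 (SE, adjusted p = 0.0116); wild type 1 lay below mutant 2. Acvr1, a related type I receptor also called ALK2, measured 2628, 2584, 2585, 2782 and 2673 in the wild types and 2125, 2183, 2285, 2201 and 1967 in the mutants, and all 5 mutants lay below all 5 wild types with a change of -0.30 ± 0.06 (SE, adjusted p = 0.00175). In the 6 uncoded libraries alone neither fall passed the test (adjusted p = 0.166 for Eng and 0.0884 for Acvr1). Bmpr2, the type II partner, gave 0.17 ± 0.14 (SE, adjusted p = 0.41). With each library divided by its total 5 of the 10 fell, and 3 did without mutant 1 or without mutant 3.

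Of 13 SMADs and their brakes tested 1 rose and none fell; without mutant 1, or with the replicate block over all 10 libraries, 2 rose, the second being Smurf1, a ligase that marks SMADs for breakdown. Smad1, a direct substrate of the receptor, rose 2.98-fold in the fit. Its values were 2737, 3026, 2841, 2917 and 3023 in the wild types and 6540.3, 9882, 9471, 9726 and 8162 in the mutants. No mutant came near a wild type, mutant 1 was the lowest mutant, and the change was 1.57 ± 0.10 (SE, adjusted p = 9.5e-07). The other 2 substrates did not pass: Smad5 changed by 0.02 ± 0.08 (SE, adjusted p = 0.848), and Smad9, with values of 22.7 to 44.3 in the wild types and 15.9 to 62.4 in the mutants, by 0.04 ± 0.36 (SE, adjusted p = 0.945). The inhibitory Smad6 and Smad7 gave 0.09 ± 0.18 (SE, adjusted p = 0.739) and -0.18 ± 0.21 (SE, adjusted p = 0.549), and Smad4 0.14 ± 0.10 (SE, adjusted p = 0.28).

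Across cohorts, 2340 of 14701 genes (15.9%) had an Alk1 effect that differed from the Smad4 effect, and 2135 (14.5%) one that differed from the Eng effect, tested as differences of the 2 genotype effects in a joint limma fit of the 30 untreated libraries. Both differences use the same 10 Alk1 libraries, so they are not independent of each other. Over all genes the Alk1 effect was above the Smad4 effect for 8.15% and below it for 7.77%. Against Eng these shares were 7.8% and 6.72%. In Smad4 mutants 17.2% of all tested genes rose and 15.8% fell, and in Eng mutants 12.4% rose and 9.08% fell. Counts of differences, and of Smad4 or Eng calls, in the gene groups below are to be read against these shares. The change of Smad1 was 1.57 after Alk1 deletion, 0.94 after Smad4 deletion and 0.02 after Eng deletion. It exceeded the Smad4 effect by 0.64 ± 0.15 (SE, adjusted p = 0.00429) and the Eng effect by 1.55 ± 0.15 (SE, adjusted p = 7.7e-08). The Eng transcript was higher in Smad4 mutants by 0.45, and its Alk1 effect differed from that by -0.82 ± 0.12 (SE, adjusted p = 2.4e-05).

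Of 14 known target genes of BMP9 signalling tested, 7 fell and 2 rose, with a group median of -0.31. Id1 and Id3 encode inhibitors of helix-loop-helix transcription factors and are among the most direct targets. Id1 measured 4481, 4247, 4845, 5633 and 4396 in the wild types and 1952, 1585, 1741, 1447 and 1648 in the mutants, Id3 4852, 4662, 4688, 6252 and 5218 in the wild types and 1794, 1198, 1031, 1325 and 1398 in the mutants. For both genes the highest mutant was well under the lowest wild type, with changes of -1.49 ± 0.09 (SE, adjusted p = 7.7e-07) and -1.94 ± 0.13 (SE, adjusted p = 1.2e-06). The related Id2 changed by -1.08 ± 0.11 (SE, adjusted p = 1.7e-05), while Id4 did not pass at -0.17 ± 0.23 (SE, adjusted p = 0.613). Tmem100, an endothelial membrane protein induced by ALK1, fell from 1041, 994, 1068, 1178 and 1043 in the wild types to 568, 825, 569.9, 405 and 355 in the mutants, a change of -1.03 ± 0.19 (SE, adjusted p = 0.00126).

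Gja5, which encodes the arterial gap junction protein connexin 40, measured 3377, 3559.6, 3751, 3174 and 2378 in the wild types and 1375, 1181, 470.1, 737 and 923 in the mutants. All mutants lay below all wild types and the change was -1.87 ± 0.24 (SE, adjusted p = 0.00013). Hey1 and Hey2, transcription repressors shared with Notch signalling, changed by -0.44 and -0.65, both called; Hey1 was not called in the 6 uncoded libraries (adjusted p = 0.24). The 2 members that rose were Bmper, a secreted protein that binds BMPs, and Stc1, a secreted glycoprotein that is also induced in low oxygen. Bmper measured 16.9, 23.6, 8.69, 16.7 and 24.6 in the wild types and 55.5, 114, 97.6, 111 and 47.0 in the mutants; it reached the filter through the mutants, and without it 1 of 13 targets rose. Stc1 measured 357, 357, 354, 261 and 244 in the wild types and 1038, 2082, 4335, 1811 and 1279.6 in the mutants, highest in mutant 3, and changed by 2.57 ± 0.31 (SE, adjusted p = 7.1e-05). Atoh8, Bambi, Smad6 and Smad7 did not pass.

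The same targets differed between cohorts in both directions. Id1 fell less after Alk1 deletion than after Smad4 deletion (-2.50), with a difference of 1.01 ± 0.17 (SE, adjusted p = 9.8e-05). Id3 fell more, against -0.75 after Smad4 deletion, with a difference of -1.19 ± 0.18 (SE, adjusted p = 3.2e-05). Gja5 was higher by 0.56 in the Smad4 mutants, so that its effects were called in opposite directions, with a difference of -2.43 ± 0.29 (SE, adjusted p = 6.7e-07). Tmem100 also fell more, with a difference of -0.97 ± 0.25 (SE, adjusted p = 0.00643). Against Eng deletion the differences were -1.22 ± 0.17 (SE, adjusted p = 1.5e-05) for Id1, -1.78 ± 0.18 (SE, adjusted p = 1.3e-07) for Id3 and -1.71 ± 0.29 (SE, adjusted p = 0.00016) for Gja5. Over the 14 targets, the Alk1 effect was above the Smad4 effect for 4 and below it for 4 (8.15% and 7.77% of all genes). It was above the Eng effect for 2 and below it for 6 (7.8% and 6.72%). The 14 include Bmper, which reached the filter in the Alk1 table through the mutants, so the counts of higher effects are descriptions only.

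Of 7 angiopoietin and TIE receptor genes tested 1 rose and 3 fell, with a median of -0.29. Angiopoietin 2, an antagonist of the TIE2 receptor (Tek) that loosens vessels during sprouting, rose 8.15-fold while its receptor fell. Angpt2 measured 1124, 1445, 1676, 1831 and 1751 in the wild types and 8443, 13919.9, 15386, 14676 and 11859 in the mutants, a change of 3.03 ± 0.17 (SE, adjusted p = 4.9e-07). The lowest mutant, mutant 1, was several-fold above the highest wild type. Tek measured 33266, 31338, 33565, 31918 and 30148 in the wild types and 19849.8, 16613, 16684, 17371 and 17971 in the mutants, and the 5 mutants lay in a narrow band far below the wild types at -0.86 ± 0.07 (SE, adjusted p = 2.6e-06). The agonist Angpt1 fell by 0.54 ± 0.16 (SE, adjusted p = 0.0214), and Svep1, a matrix protein that binds TIE1, fell by 0.75 ± 0.25 (SE, adjusted p = 0.0377). Svep1 lost its call when any of wild types 1, 3 and 5 or mutants 2, 3 and 5 was left out (adjusted p from 0.0519 to 0.094) and Angpt1 without wild type 5 (0.0557), and both lost theirs in the 6 uncoded libraries. Tie1 gave -0.21 ± 0.08 (SE, adjusted p = 0.0569), and the TIE2 phosphatase gene Ptprb -0.29 ± 0.12 (SE, adjusted p = 0.0763). With total scaling, with the library code in the fit, or with the replicate block over all 10 libraries, 5 of the 7 genes fell rather than 3. With quantile normalization 4 fell and in the 6 uncoded libraries 1. In each of these fits 1 rose. Angpt4 was under the filter, at most 4.42 in any library. Angpt2 was higher by 2.61 after Smad4 deletion and 1.36 after Eng deletion; the difference was 0.42 ± 0.38 (SE, adjusted p = 0.504) from Smad4 and 1.67 ± 0.38 (SE, adjusted p = 0.00358) from Eng. For Tek the Alk1 effect differed from those of the other cohorts by -0.28 (Smad4) and -0.33 (Eng), both called.

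**Figure D2:**
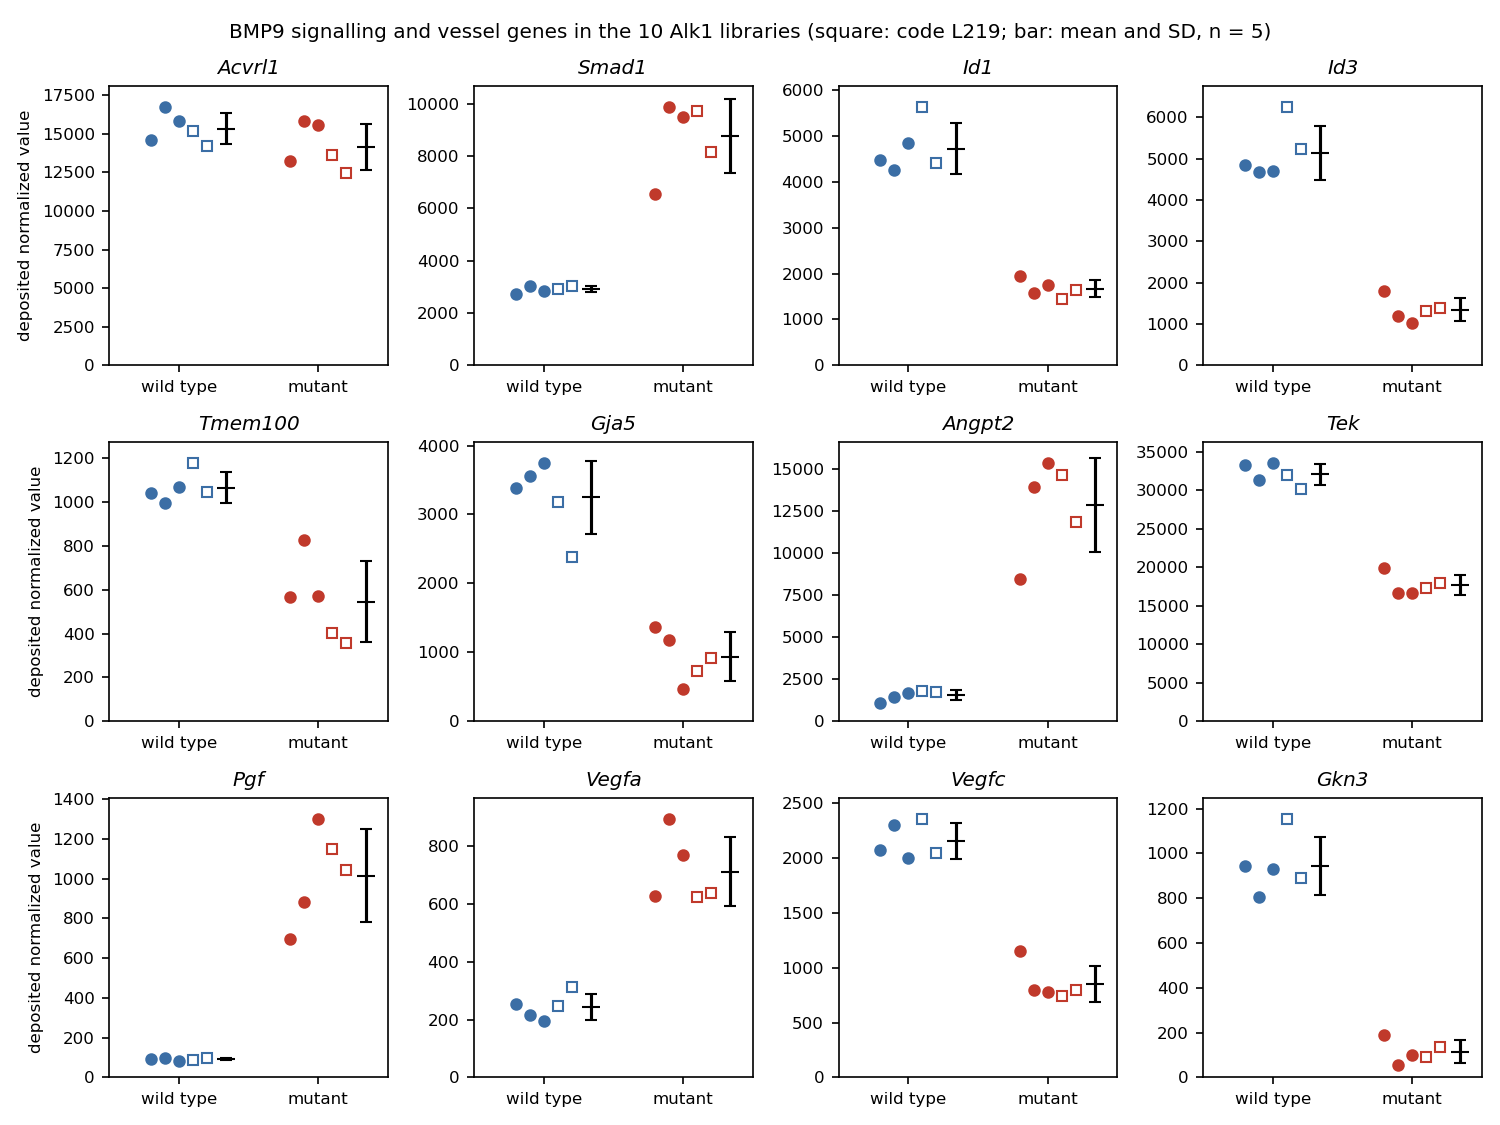
Normalized value (vertical axis, linear from 0) of 12 genes in each wild-type and mutant library. Circles are libraries without a code, squares those with code L219, and the bar and whisker are the mean and SD over 5 libraries. Acvrl1 overlaps between groups, while Smad1, Angpt2, Pgf and Vegfa are higher in all mutants and Id1, Id3, Tmem100, Gja5, Tek, Vegfc and Gkn3 lower in all of them.

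Among VEGF ligands and receptors, 2 ligands rose and 1 fell. Vegfa, the main driver of vessel growth, measured 254, 217, 194, 246 and 313 in the wild types and 628, 895, 770.00, 626 and 638 in the mutants, a change of 1.53 ± 0.14 (SE, adjusted p = 9.6e-06). Placental growth factor, Pgf, which binds VEGFR1, measured 93.8, 95.6, 84.7, 87.6 and 98.2 in the wild types and 696, 885, 1302, 1148 and 1045 in the mutants, 10.6-fold higher, or 3.41 ± 0.15 (SE, adjusted p = 8.1e-08) on the log2 scale. Vegfc, a ligand of VEGFR3, went the other way: 2078, 2303, 1997, 2359.8 and 2043 in the wild types and 1151, 796, 775, 743 and 795 in the mutants, a change of -1.35 ± 0.11 (SE, adjusted p = 4.2e-06). In each of these 3 genes no library of one genotype reached the range of the other. The receptor gene Kdr (VEGFR2) measured 96255, 101409.9, 104185, 98725 and 94957 in the wild types and 91792, 80669.96, 59329.7, 77425 and 73809 in the mutants, with mutant 3 the lowest, and fell by 0.38 ± 0.11 (SE, adjusted p = 0.0143); its adjusted p was 0.144 in the 6 uncoded libraries and 0.128 with quantile normalization. Flt1, Flt4 and Nrp1 did not pass, with log2 changes of 0.15, 0.08 and 0.15.

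The Vegfa effect differed from that in both other cohorts. In Smad4 mutants it was lower by 0.84 and in Eng mutants it changed by 0.23 ± 0.14 (SE, adjusted p = 0.308), and the Alk1 effect was above them by 2.37 ± 0.27 (SE, adjusted p = 4.2e-07) and 1.30 ± 0.27 (SE, adjusted p = 0.00153). Pgf was higher in Smad4 mutants as well (4.16) but not called in Eng mutants (0.31), with a difference from Eng of 3.10 ± 0.30 (SE, adjusted p = 6.3e-08). For Vegfc the Alk1 effect differed from the Smad4 effect by -1.26 and from the Eng effect by -1.31, both called.

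Genes of tip cells, the leading cells of a vessel sprout, rose as a group: 18 of 22 rose and 2 fell, with a median of 0.76. Apln, a peptide that sprouting endothelium secretes, measured 17393, 20538, 21316, 21667 and 20838 in the wild types and 57711, 58152, 40145, 69957 and 58029 in the mutants, with mutant 3 the lowest mutant and still above every wild type, at 1.46 ± 0.13 (SE, adjusted p = 5.7e-06). Its receptor gene Aplnr, found in vein and stalk cells, fell by 0.53 ± 0.09 (SE, adjusted p = 0.00098). Kcne3, a potassium channel subunit, went from 31.4 to 55.6 in the wild types to 597 to 1045 in the mutants. Adrenomedullin, Adm, a vasoactive peptide that is also induced in low oxygen, measured 755, 689.8, 998, 614 and 667 in the wild types and 3526, 7639, 11036, 5836 and 4102 in the mutants, with mutant 3 at the top. Cxcr4, the receptor of CXCL12, rose by 1.13, Plaur, the urokinase receptor, by 1.86, and Trp53i11 by 1.83. Besides Aplnr, the guidance receptor gene Unc5b fell by 0.37. The Notch ligand Dll4 (0.02) and the basement membrane gene Nid1 (0.22) did not pass. In the tests of differences, 12 of the 22 had an Alk1 effect above the Eng effect and none below, whereas 1 was above and 4 were below the Smad4 effect.

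Arterial genes fell: 14 of 19 tested fell and 2 rose, and the median was -0.59. Gkn3, a marker of brain arteries, measured 946, 803, 929.5, 1155 and 891 in the wild types and 189, 56.0, 101, 92.3 and 137 in the mutants. Mutant 1, the highest mutant, was still far under every wild type. The changes were -1.19 ± 0.16 (SE, adjusted p = 0.00019) for Gja4 (connexin 37), -0.997 ± 0.08 (SE, adjusted p = 3.2e-06) for Sema3g and -0.73 ± 0.12 (SE, adjusted p = 0.00054) for Efnb2, the ephrin that marks arteries. The elastic fibre gene Fbln5 fell by 0.62, and the transcription factor gene Sox17 fell by 0.46. Mgp, an inhibitor of BMPs and of calcification, and Cxcr4 were the 2 that rose, Mgp by 0.81 ± 0.24 (SE, adjusted p = 0.0207); Mgp was not called when wild type 2 or 3 or mutant 2 was left out (0.0501 to 0.0534). Smooth muscle, which surrounds arteries, gave 5 of 7 markers lower in the same libraries (summed levels above), and the part of these cells in the fall of arterial genes was not tested. In RNA from a whole preparation, fewer cells of a kind and less RNA per cell cannot be told apart. In the 6 uncoded libraries 9 arterial genes fell and 1 rose.

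Arterial genes were also compared with those of the other deletions. In Smad4 mutants 5 rose and 5 fell (17.2% and 15.8% of 14012 genes tested there), and in Eng mutants 1 rose and 6 fell (12.4% and 9.08% of 14350). By the tests of differences, the Alk1 effect was below the Smad4 effect for 11 of the 19 and above it for none, and below the Eng effect for 10 and above it for 1. For Gkn3 the differences were -1.58 ± 0.30 (SE, adjusted p = 0.00043) and -2.62 ± 0.30 (SE, adjusted p = 7.5e-07). Fbln5, a matrix protein gene, was called in opposite directions, at -0.62 here and 0.44 in Smad4 mutants.

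Of 14 venous genes tested, 5 fell and 1 rose, with a median of 0.02. Without mutant 1, 3 rose, Icam1 and Il1r1 besides, and in the 6 uncoded libraries none. Nr2f2, the transcription factor gene that specifies veins, gave -0.40 ± 0.22 (SE, adjusted p = 0.179). The falls were -1.24 ± 0.16 (SE, adjusted p = 0.00013) for Vcam1, a leukocyte adhesion molecule, -1.05 ± 0.09 (SE, adjusted p = 3.7e-06) for the amino acid transporter gene Slc38a5 and -1.01 ± 0.20 (SE, adjusted p = 0.00228) for Flrt2; Ephb4, the receptor of ephrin B2, fell by 0.40. The gene that rose, Lcn2, is an iron-carrier protein of inflammation, with values of 78.8, 64.0, 83.0, 58.0 and 58.2 in the wild types and 56.6, 489, 1174, 514 and 461 in the mutants. Mutant 1 was as low as the wild types and the other mutants were far above them.

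Among 15 Notch genes, 5 fell and 2 rose (median -0.13). The falls were those of Hey1 and Hey2, given with the BMP9 targets, the ligand gene Jag1 (-0.42 ± 0.11 SE, adjusted p = 0.0111), Notch2 (-0.42 ± 0.08 SE, adjusted p = 0.00249) and Lfng. Lfng encodes a sugar transferase that modifies Notch receptors, and measured 1855, 2260.2, 1896, 2318 and 2119 in the wild types and 1546, 1928, 1166, 1862 and 1580.5 in the mutants, with mutants 2 and 4 within the range of the wild types. Its change was -0.39 ± 0.13 (SE, adjusted p = 0.0338), and it was not called when any of wild types 2, 4 and 5 or mutants 1 and 5 was left out (adjusted p from 0.0542 to 0.0791). In Smad4 mutants Lfng was higher by 2.07, a difference of -2.45 ± 0.19 (SE, adjusted p = 2.2e-10). Dll1 rose by 0.71 ± 0.18 (SE, adjusted p = 0.00992), and Nrarp by 0.39 ± 0.12 (SE, adjusted p = 0.026), which was not called with each library divided by its total (adjusted p = 0.0766) or when any of wild types 1, 4 and 5 or mutants 2 and 4 was left out (0.0522 to 0.0665). Dll4 and Notch1, at 0.02 and -0.27, did not pass.

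The blood-brain barrier keeps most molecules out of the brain and relies on carriers in the endothelium to admit nutrients. Of 26 barrier transporter genes, 16 fell and 5 rose, with a median of -0.52. The vitamin carrier gene Slc5a6 measured 2694, 2989.6, 2885, 3779 and 3496 in the wild types and 1016, 494, 338, 487 and 619 in the mutants, with no overlap. The taurine carrier gene Slc6a6 measured 65732, 70781, 69923, 66957 and 61224 in the wild types and 27010.3, 22256, 14482, 14556 and 17423 in the mutants, and the highest mutant was far under the lowest wild type, a change of -1.85 ± 0.16 (SE, adjusted p = 4.5e-06). Spock2, a proteoglycan enriched in brain endothelium, measured 196138, 222624, 218486, 209107 and 220598 in the wild types and 78912, 66767, 68716, 87221 and 78671 in the mutants, a change of -1.49 ± 0.09 (SE, adjusted p = 6.2e-07). The transferrin receptor gene Tfrc measured 110008, 94533, 119573, 99054 and 93875 in the wild types and 41834, 39098, 42780.02, 41057 and 66438 in the mutants, with mutant 5 the highest mutant, a change of -1.18 ± 0.14 (SE, adjusted p = 5.7e-05). The lipid carrier Mfsd2a, which also restrains vesicle transport, fell by 0.78 ± 0.09 (SE, adjusted p = 6.7e-05). The iron exporter gene Slc40a1 changed by -1.05, the organic anion carrier genes Slc22a8 and Slco1c1 by -1.07 and -0.74, and the drug pump gene Abcb1a by -0.49, all called.

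The rises among transporters were led by a glutamate carrier and the main glucose carrier. Slc1a1, the glutamate carrier, measured 1211, 1381, 1633, 1655 and 1877 in the wild types and 2899, 5064, 6019, 5815 and 4472 in the mutants, a change of 1.61 ± 0.18 (SE, adjusted p = 4.6e-05). The glucose carrier gene Slc2a1 measured 44684, 47770.4, 46818, 46508 and 44053 in the wild types and 47858, 117996, 146847, 100877 and 75846 in the mutants. Mutant 1 lay just above the highest wild type and the other 4 mutants well above it, and the change was 0.99 ± 0.24 (SE, adjusted p = 0.00673). Slc7a5, the carrier of large neutral amino acids, rose by 0.52 ± 0.17 (SE, adjusted p = 0.0385), the insulin receptor gene Insr by 0.44 and the glutamine carrier gene Slc38a3 by 0.39. In the 6 uncoded libraries 15 transporters fell and 1 rose; Slc2a1 then had an adjusted p of 0.0917, and Slc7a5 was not called when any library but wild type 2 or mutant 1 was left out (0.0501 to 0.0928). Without mutant 1, 7 transporters rose. Abcg2, Abcc4, Slc19a3, Slc3a2 and Slco2b1 did not pass. After Smad4 deletion 20 of the 26 fell and 1 rose (15.8% and 17.2% of all genes tested there). After Eng deletion 22 fell and none rose (9.08% and 12.4%). The Alk1 effect was above the Smad4 effect for 7 and below it for 7, and above the Eng effect for 7 and below it for 9. For Slc6a6 the differences were -1.53 and -1.55, both called.

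Junction and vesicle genes moved in both directions. Among 17 junction genes 5 rose and 3 fell (median -0.05). The falls were -0.45 ± 0.06 (SE, adjusted p = 0.00021) for occludin, Ocln, -0.56 for Jam2 and -0.49 for Cgnl1. Marveld2 rose by 0.83 ± 0.18 (SE, adjusted p = 0.00415), the catenin genes Ctnna1 and Ctnnd1 by 0.38 and 0.22; Ctnnd1 lost its call when any wild type but the third or mutant 2 or 3 was left out (0.0526 to 0.072). Without mutant 3, 3 junction genes rose. Cldn5, the main claudin of brain endothelium, gave -0.21 ± 0.08 (SE, adjusted p = 0.0754). With each library divided by its total the split was 3 higher and 5 lower. Of 11 genes of caveolae and vesicle transport 6 rose and 2 fell, among them the caveolin gene Cav1 (0.59 ± 0.12 SE, adjusted p = 0.00233) and Cavin3 (0.67 ± 0.08 SE, adjusted p = 6.6e-05); by total scaling 4 rose and 3 fell. Plvap, a diaphragm protein of leaky capillaries, fell by 0.66 ± 0.13 (SE, adjusted p = 0.0021), whereas it was higher by 0.82 in Smad4 mutants, a difference of -1.48 ± 0.15 (SE, adjusted p = 7.1e-08).

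Wnt signalling through FZD4 and LRP receptors builds and keeps the barrier, and its feedback targets report its activity. Of 21 receptor and target genes, 13 fell and 1 rose (median -0.30). Notum, a secreted enzyme that inactivates Wnts, measured 3279.5, 3785, 3503, 3524 and 3703 in the wild types and 981, 969, 782, 896 and 947 in the mutants. The groups were far apart, a change of -1.96 ± 0.07 (SE, adjusted p = 5.9e-08). Nkd1, an intracellular brake, measured 13361, 16182, 13689, 13375 and 15102 in the wild types and 6572, 6899, 6881, 6692 and 6771 in the mutants, with the 5 mutants close together, a change of -1.08 ± 0.06 (SE, adjusted p = 5.2e-07). Further falls were -1.09 ± 0.14 (SE, adjusted p = 0.00012) for Tnfrsf19, -1.02 ± 0.22 (SE, adjusted p = 0.00362) for Sp5, -0.76 for Apcdd1 and -0.74 for Axin2. The receptor gene Fzd4 rose, by 0.60 ± 0.19 (SE, adjusted p = 0.0286), and was not called when wild type 2, 4 or 5 or mutant 2 or 4 was left out (0.0508 to 0.0655) or in the 6 uncoded libraries (adjusted p = 0.113), where 8 genes fell. Lef1, a transcription factor gene of the pathway, gave -0.22 ± 0.12 (SE, adjusted p = 0.173). In Smad4 mutants 10 of 21 fell and 3 rose, and in Eng mutants 13 of 22 fell; the Alk1 effect was below the Smad4 effect for 5 of 22 genes and below the Eng effect for 5.

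**Figure D3:**
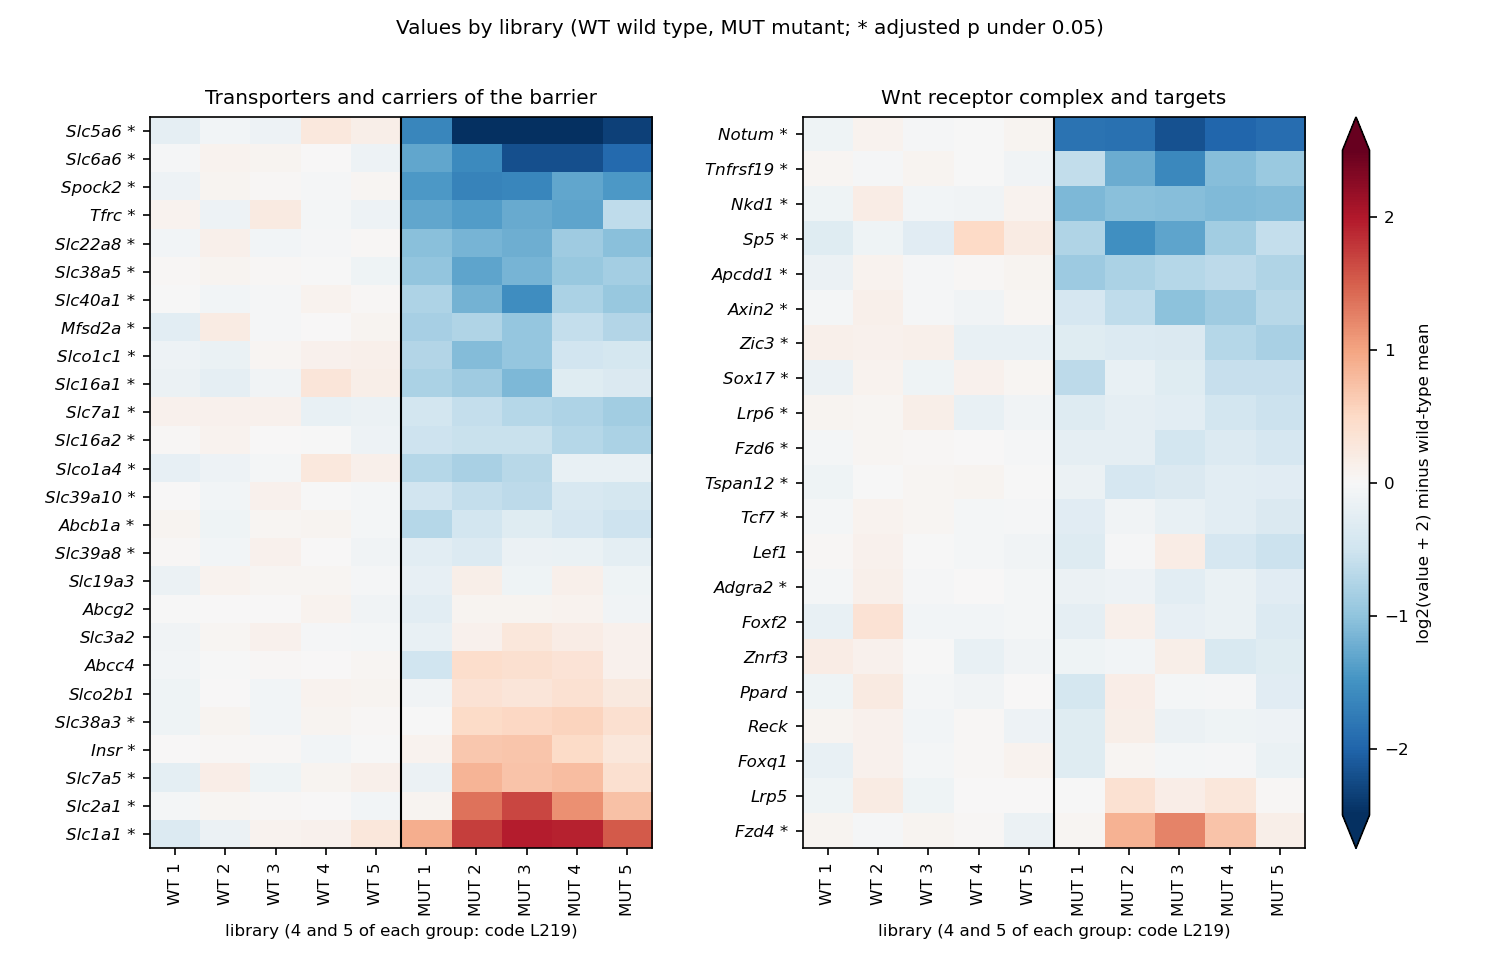
Heat map of 26 barrier transporter genes and 21 Wnt genes (rows) in the 10 libraries (columns). Color is the log2 value minus the mean of the wild types, limited to 2.5 either way, and an asterisk marks a called gene. Most rows are lower in all 5 mutants, Slc1a1 is higher in all of them, and Slc2a1 is near the wild types in mutant 1.

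Genes of cell division rose without exception in the groups examined: 17 of 17 genes of the G1 to S phase transition and 17 of 17 of the G2 and M phases, with medians of 0.77 and 1.20. Ccnb1, the cyclin that starts mitosis, measured 933, 845, 970.00, 811 and 771 in the wild types and 2151, 2361, 2523, 2139 and 2425 in the mutants. Every mutant, mutant 1 included, was far above every wild type, and the change was 1.42 ± 0.08 (SE, adjusted p = 4.9e-07). Ube2c rose by 1.46 ± 0.10 (SE, adjusted p = 1.5e-06), Cdk1 by 1.26 ± 0.08 (SE, adjusted p = 9.2e-07), the proliferation marker Mki67 by 1.01 ± 0.15 (SE, adjusted p = 0.00031) and Cdc20 by 0.96 ± 0.06 (SE, adjusted p = 7.7e-07). Of the G1 to S genes, Ccne1 rose by 1.24 ± 0.12 (SE, adjusted p = 1.7e-05), Rrm2 by 1.16 ± 0.11 (SE, adjusted p = 1.3e-05) and E2f1 by 0.77 ± 0.10 (SE, adjusted p = 0.00016). All 17 G2 and M genes were also called in the 6 uncoded libraries and by total scaling; for the G1 to S genes these counts were 11 and 14.

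The G2 and M genes rose further here than after Smad4 deletion, and 10 of them further than after Eng deletion. In Smad4 mutants 15 of the 17 rose (17.2% of all genes rose there) and in Eng mutants 17 (12.4%). The Alk1 effect was above the Smad4 effect for all 17 and above the Eng effect for 10. For Cdk1 the differences were 0.85 ± 0.13 (SE, adjusted p = 4.1e-05) and 0.58 ± 0.13 (SE, adjusted p = 0.0035). The time since deletion differs between cohorts, so it cannot be told apart from the gene.

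Inhibitors of the cell cycle rose beside these genes: 6 of 11 rose and 2 fell (median 0.65). Cdkn1a (p21), which halts the cycle, measured 2411, 2710.3, 2951, 2624 and 2704 in the wild types and 5117, 11612, 19684, 10575 and 7025 in the mutants. All mutants were above all wild types, with mutant 3 the highest and mutant 1 the lowest, and the change was 1.86 ± 0.28 (SE, adjusted p = 0.00032). Cdkn2c rose by 0.85 ± 0.10 (SE, adjusted p = 4.2e-05), Gadd45a by 1.01 ± 0.18 (SE, adjusted p = 0.00132) and Gadd45b by 1.25 ± 0.31 (SE, adjusted p = 0.00926). Cdkn1c (p57) and Cdkn2b (p15) fell, with changes of -0.60 ± 0.13 (SE, adjusted p = 0.00437) and -0.55 ± 0.17 (SE, adjusted p = 0.026); Cdkn2b was not called without wild type 4 or 5 (0.062 and 0.0626).

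Many promoters of the G2 and M genes hold a shared letter motif. The CCAAT box is bound by the factor NF-Y and is common in genes of the G2 and M phases. The 250 bases before the start of Ccnb1 (chr13:100786487-100786736, reverse strand) and Cdc20 (chr4:118437344-118437593, reverse strand) are shown as examples of the group that rose together, from RefSeq on GRCm38.p6, 5′ to 3′, with CCAAT on either strand in capitals.
Ccnb1: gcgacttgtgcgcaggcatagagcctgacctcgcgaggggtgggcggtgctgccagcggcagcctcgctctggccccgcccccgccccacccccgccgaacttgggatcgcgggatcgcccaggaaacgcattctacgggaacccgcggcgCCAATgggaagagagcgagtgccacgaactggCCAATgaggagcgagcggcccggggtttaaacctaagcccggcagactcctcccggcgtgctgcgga
Cdc20: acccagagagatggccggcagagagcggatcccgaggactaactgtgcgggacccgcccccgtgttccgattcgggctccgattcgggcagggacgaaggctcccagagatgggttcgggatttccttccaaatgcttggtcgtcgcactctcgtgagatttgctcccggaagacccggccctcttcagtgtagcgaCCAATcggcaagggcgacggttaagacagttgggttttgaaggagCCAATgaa
CCAAT, searched on both strands, was found in 13 of the 14 G2 and M genes with a promoter in the RefSeq table (92.9%) and in 8 of 14 G1 to S genes (57.1%). It was found in 34.5% of all 27025 promoters of this length and in 36.3% of those of the tested genes that matched. A match is a run of letters and does not show that a factor binds there.

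Genes of glycolysis and of the response to low oxygen rose together. Of 21 glycolysis genes 16 rose and 1 fell (median 0.79), and of 21 other hypoxia-inducible genes and HIF subunits 17 rose and 1 fell (median 1.56). Slc16a3, which exports lactate, measured 56.8, 54.2, 62.8, 45.8 and 52.6 in the wild types and 478, 725, 975, 672 and 710.5 in the mutants, a change of 3.63 ± 0.17 (SE, adjusted p = 1.1e-07). Ldha, which makes lactate, measured 9236, 9495, 9896, 10312 and 9531 in the wild types and 16996, 19733, 22160.1, 20287 and 19958 in the mutants, a change of 1.03 ± 0.07 (SE, adjusted p = 1.3e-06), and Pgk1 4108, 3821, 4011, 4311 and 3961 in the wild types and 7689, 9172, 10783, 8409 and 9305 in the mutants, a change of 1.16 ± 0.08 (SE, adjusted p = 1.5e-06). In each of these genes mutant 3 was the highest and mutant 1 the lowest mutant, still above every wild type. Hk2, which phosphorylates glucose, rose by 1.28 and Pfkp, a phosphofructokinase gene, by 1.17. Pfkfb3, which makes an activator of phosphofructokinase, rose by 1.04 and Pdk1, which keeps pyruvate out of the citric acid cycle, by 0.74. Pfkm fell by 0.17 and lost its call when any library but wild type 1 or mutant 4 was left out (0.0644 to 0.124), so that without mutant 1 no glycolysis gene fell, and Eno1 gave 0.15 ± 0.06 (SE, adjusted p = 0.0604).

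Egln3, a hydroxylase gene that HIF induces, measured 65.0, 36.9, 52.1, 48.0 and 54.9 in the wild types and 552, 1003, 961, 777 and 792 in the mutants, a change of 3.93 ± 0.18 (SE, adjusted p = 1.1e-07). Bnip3, a mitochondrial receptor of autophagy, rose by 1.56 ± 0.18 (SE, adjusted p = 4.9e-05), Ero1l, an oxidase of protein folding, by 1.98 ± 0.17 (SE, adjusted p = 4.9e-06), P4ha2, a collagen hydroxylase, by 1.75 ± 0.19 (SE, adjusted p = 2.7e-05) and Ndrg1 by 1.60 ± 0.30 (SE, adjusted p = 0.00146). The HIF subunits moved apart: Hif1a rose by 0.70 ± 0.09 (SE, adjusted p = 0.00013). Epas1 (HIF2A), the form abundant in endothelium, measured 78695, 91326, 81628, 80457 and 79714 in the wild types and 59151, 77068, 73619, 68095 and 60146 in the mutants and fell by 0.29 ± 0.09 (SE, adjusted p = 0.0278). All wild types lay above all mutants, mutant 2 by the least, and Epas1 lost its call when wild type 2 or 3 or mutant 1 or 5 was left out (adjusted p from 0.0511 to 0.0703), so that without mutant 1 none of this group fell. Car9 was under the filter.

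Glycolysis and hypoxia genes that differed between cohorts were higher after Alk1 deletion. For glycolysis the Alk1 effect was above the Smad4 effect for 10 of 21 genes (8.15% of all genes). It was above the Eng effect for 14 (7.8%), with none below either. For the other hypoxia genes it was above for 10 and 18, again with none below. For Egln3 the differences were 2.02 ± 0.43 (SE, adjusted p = 0.00136) and 2.94 ± 0.43 (SE, adjusted p = 2.9e-05). Bnip3 gave -0.37 ± 0.22 (SE, adjusted p = 0.218) in Smad4 mutants, and Ndrg1, at -0.85, was called lower there, a difference of 2.45 ± 0.31 (SE, adjusted p = 1.7e-06).

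The letters ACGTG are the core of the element that HIF binds. They are shown in capitals, on either strand, in the 250 bases before the start of Egln3 (chr12:54203875-54204124, reverse strand), Slc16a3 (chr11:120948817-120949066, forward strand) and Ldha (chr7:46845554-46845803, forward strand), shown because the glycolysis and hypoxia results turn on them, from RefSeq on GRCm38.p6, 5′ to 3′.
Egln3: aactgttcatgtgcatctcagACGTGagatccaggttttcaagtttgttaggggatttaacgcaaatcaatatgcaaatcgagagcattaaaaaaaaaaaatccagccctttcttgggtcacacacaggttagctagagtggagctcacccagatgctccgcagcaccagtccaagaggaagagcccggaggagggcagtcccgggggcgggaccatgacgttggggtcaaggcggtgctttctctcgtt
Slc16a3: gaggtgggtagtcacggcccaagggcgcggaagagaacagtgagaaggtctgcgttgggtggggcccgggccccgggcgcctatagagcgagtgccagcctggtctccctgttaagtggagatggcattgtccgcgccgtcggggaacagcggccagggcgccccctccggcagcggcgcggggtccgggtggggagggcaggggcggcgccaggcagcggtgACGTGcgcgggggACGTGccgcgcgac
Ldha: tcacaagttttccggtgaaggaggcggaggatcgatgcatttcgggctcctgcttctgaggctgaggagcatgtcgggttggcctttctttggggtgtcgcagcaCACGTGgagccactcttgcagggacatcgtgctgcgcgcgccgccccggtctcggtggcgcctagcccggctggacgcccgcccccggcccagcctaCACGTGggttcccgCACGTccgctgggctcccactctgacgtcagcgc
The scan counted 1 match in Egln3, 2 in Slc16a3 and 5 in Ldha. ACGTG read on both strands overlaps the E-box CACGTG, which other factors bind and which counts as 2 matches. It was found in 17 of 38 promoters of the glycolysis and hypoxia genes (44.7%), in 21.5% of promoters of tested genes and in 16.6% of all 27025 promoters. A match is a description of the sequence only.

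**Figure D4:**
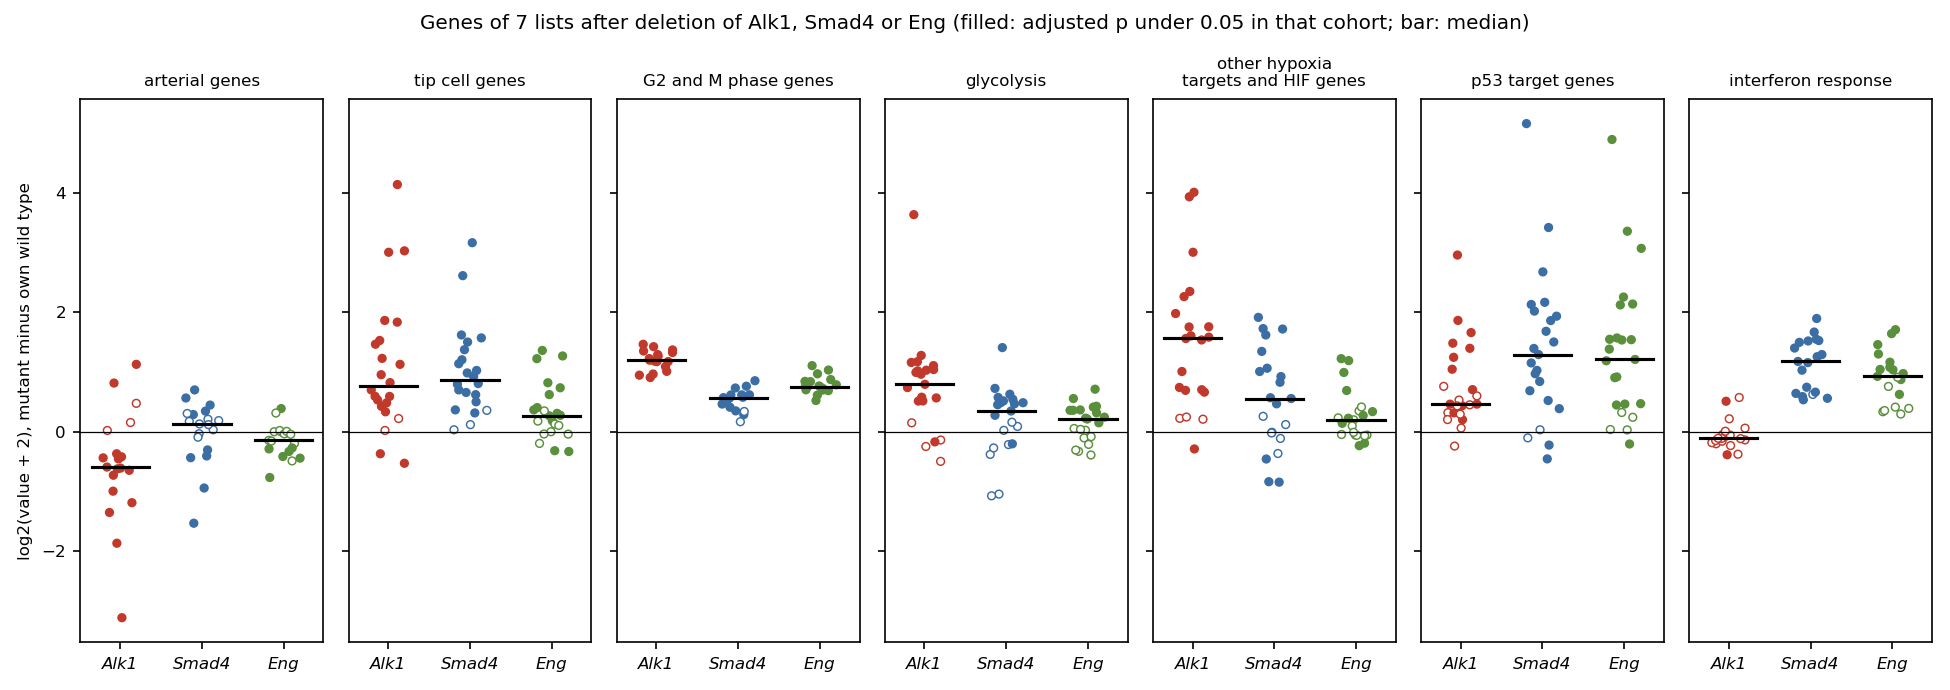
Log2 change, mutant minus wild type of the same cohort (vertical axis), of the members of 7 gene groups after deletion of Alk1, Smad4 or Eng. Filled points were called in that cohort, open points were not, and the bar marks the median. The G2 and M, glycolysis and hypoxia groups are highest in the Alk1 cohort and the arterial group lowest, while p53 targets and interferon genes are higher in the other cohorts.

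The respiratory chain moved little. Of 22 subunit genes tested 4 rose and none fell (median 0.11): Uqcrc1 (0.21 ± 0.06 SE, adjusted p = 0.0149), Cycs (0.34 ± 0.12 SE, adjusted p = 0.0392), Atp5a1 (0.21 ± 0.06 SE, adjusted p = 0.0197) and Atp5b (0.30 ± 0.06 SE, adjusted p = 0.00305). Cycs was called in the full set of libraries and without wild type 3 or mutant 2, and lost its call when any other library was left out (adjusted p from 0.0543 to 0.0938), and Atp5a1 was not called without wild type 1 (0.0527). With total scaling 1 rose, and with the library code in the fit 8 (37.7% of all genes were called in that fit). With the replicate block over all 10 libraries 9 rose. Of 17 genes of pyruvate entry and the citric acid cycle 4 rose and 1 fell (median 0.07), Pdk1 among the former and Pdk2 (-0.58 ± 0.08 SE, adjusted p = 0.00018) the latter; by total scaling 2 rose and 2 fell, 2 rose without mutant 1 and 2 fell without mutant 3.

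Ribosomal protein genes of the cytosol, which build the protein-making particle, moved little. Of 78 tested 6 rose and none fell (median 0.09), 3 rose by total scaling, 3 rose and 2 fell by quantile scaling, and 16 rose with the replicate block; many of these genes have near-identical pseudogenes, so their single values are uncertain. Rpl3l, the muscle paralog of Rpl3, is 1 of the 6. It reached the filter through the mutants, so its difference is a description: it measured 2.73, 0, 0, 6.41 and 1.39 in the wild types and 20.2, 76.1, 74.8, 54.7 and 41.0 in the mutants.

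The integrated stress response, by which cells adapt translation and amino acid supply through ATF4, rose in 13 of 16 genes, with none lower and a median of 0.67. Trib3, a pseudokinase induced by ATF4, measured 83.9, 78.7, 57.6, 79.2 and 75.6 in the wild types and 279.9, 434, 442, 351 and 350.4 in the mutants, without overlap, a change of 2.27 ± 0.16 (SE, adjusted p = 1.2e-06). Atf4 itself rose by 0.78 ± 0.13 (SE, adjusted p = 0.00075), Mthfd2, a mitochondrial folate enzyme, by 1.64 ± 0.12 (SE, adjusted p = 1.3e-06), asparagine synthetase, Asns, by 1.04 ± 0.16 (SE, adjusted p = 0.00048) and Psat1, of serine synthesis, by 0.65 ± 0.07 (SE, adjusted p = 3.3e-05). Ddit3 (CHOP) gave 0.28 ± 0.21 (SE, adjusted p = 0.35). By total scaling 10 rose, and in the 6 uncoded libraries 8. Of 12 genes of the unfolded protein response 5 rose and 1 fell (median 0.20), among them Herpud1 (0.65 ± 0.17 SE, adjusted p = 0.00972) and Xbp1 (0.51 ± 0.08 SE, adjusted p = 0.00045); the chaperone gene Hspa5 gave 0.26 ± 0.11 (SE, adjusted p = 0.0754). Without mutant 1, or without mutant 3, 2 of them fell.

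Genes of cholesterol synthesis and uptake fell in 11 of 17, with 1 higher and a median of -0.44. Of the enzymes of the late steps, Dhcr7 changed by -0.56 ± 0.10 (SE, adjusted p = 0.00126) and Msmo1 by -0.54 ± 0.10 (SE, adjusted p = 0.00189). In the 6 uncoded libraries only 3 fell and none rose. In Eng mutants 3 of these genes rose and none fell, and the Alk1 effect was below the Eng effect for 8 and above it for none. It was below the Smad4 effect for 2.

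Basement membrane and matrix genes were divided, with 8 of 26 higher and 7 lower (median 0.04). Loxl2, which crosslinks collagen IV, rose by 1.22 ± 0.10 (SE, adjusted p = 3.3e-06), Nid2 by 0.95 ± 0.13 (SE, adjusted p = 0.00014), the laminin chain Lamc1 by 0.71 ± 0.10 (SE, adjusted p = 0.00028) and Col4a1 by 0.42 ± 0.10 (SE, adjusted p = 0.00568). Col18a1, the collagen from which endostatin is cut, measured 24276, 27383, 26523, 25392 and 23841 in the wild types and 15452, 13629, 14536, 11678 and 12857 in the mutants, a change of -0.91 ± 0.08 (SE, adjusted p = 6.6e-06) with no overlap. In Smad4 mutants it was higher by 1.97, a difference of -2.88 ± 0.12 (SE, adjusted p = 7e-16). The proteoglycan genes Vcan and Agrn changed by -1.10 ± 0.14 (SE, adjusted p = 0.0001) and -0.60 ± 0.08 (SE, adjusted p = 0.00016), and the laminin chain gene Lama5 fell by 0.51. Of 12 integrins 5 rose and 1 fell (median 0.18): Itgb3, a receptor of sprouting endothelium, rose by 1.86 ± 0.13 (SE, adjusted p = 1.6e-06), Itga3 by 1.10 ± 0.21 (SE, adjusted p = 0.00166), and Itga2 fell by 1.03 ± 0.23 (SE, adjusted p = 0.00431). By total scaling 5 rose and 3 fell, and 2 fell without mutant 1.

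Proteases and their inhibitors rose in 8 of 18 genes and fell in 3 (median 0.27), by total scaling in 8 and 5, and with the replicate block in 10 and 6. Timp3, a metalloprotease inhibitor that also blocks VEGFR2, rose by 1.60 ± 0.38 (SE, adjusted p = 0.00653), and Adamts1 by 1.27 ± 0.26 (SE, adjusted p = 0.0032), while Mmp15 fell by 0.40 ± 0.08 (SE, adjusted p = 0.00261). Among 12 genes of coagulation and fibrinolysis 8 rose and 1 fell (median 0.71). Tissue factor, F3, rose by 2.37 ± 0.46 (SE, adjusted p = 0.0021), S100a10, a plasminogen receptor subunit, by 1.98 ± 0.22 (SE, adjusted p = 3.3e-05) and Thbs1 by 1.15 ± 0.25 (SE, adjusted p = 0.00439). Procr, the protein C receptor gene, fell by 0.49 ± 0.10 (SE, adjusted p = 0.00346).

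Leukocyte adhesion molecules and chemokines rose in 8 of 16 genes and fell in 3, with a median of 0.57. Sele and Cxcl2 are among the 8 and reached the filter through the mutants; without them 6 of 14 rose. E-selectin, Sele, measured 19.7, 19.1, 11.6, 23.4 and 11.8 in the wild types and 204, 66.4, 139, 122 and 124 in the mutants, with mutant 2 the lowest mutant. Cxcl2, a neutrophil attractant, measured 31.0, 13.6, 23.1, 12.5 and 7.97 in the wild types and 74.2, 83.2, 233, 122 and 167 in the mutants. P-selectin, Selp, rose by 1.59 ± 0.38 (SE, adjusted p = 0.00718), and the related attractant Cxcl1 by 1.93 ± 0.40 (SE, adjusted p = 0.00326). Cxcl12, the ligand of CXCR4, measured 24049.6, 25873, 28827, 26685 and 25167 in the wild types and 12127, 9803, 6071, 5738 and 7179 in the mutants, a change of -1.73 ± 0.18 (SE, adjusted p = 2e-05) without overlap. The Alk1 effect was above the Smad4 effect for 8 of 17 tested for a difference and below it for none. Sele and Cxcl2 are among these 17, so this count is a description only. In the 6 uncoded libraries 3 rose and 2 fell. Of 10 neutrophil markers only 4 were tested, and all 4 rose (2 of them without mutant 3). Among them Ngp lost its call when any of 7 libraries was left out, and Ltf when any of 4 was. As 3 of the 4 reached the filter through the mutants this count supports nothing; the sum of the markers was 41.5 to 107 in the wild types and 125 to 313 in the mutants. Of the defining markers, Ly6g was at 0 in all wild types and at most 2.09 in a mutant, and Elane was at 0 in all mutants. The part of neutrophils in the adhesion genes was not tested.

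Flow-responsive and vasoactive genes rose in 6 of 18 and fell in 4 (median 0.30). The shear-stress factors Klf2 and Klf4 did not pass, at 0.46 ± 0.23 (SE, adjusted p = 0.152) and 0.10 ± 0.25 (SE, adjusted p = 0.8), nor did Nos3, the endothelial nitric oxide synthase gene, at -0.06. Prostacyclin synthase, Ptgis, fell by 0.70 ± 0.06 (SE, adjusted p = 8.2e-06) and was higher by 0.51 in Smad4 mutants. Ace, which makes angiotensin II, fell by 0.60 ± 0.13 (SE, adjusted p = 0.00453), and Ramp3, a subunit of the adrenomedullin receptor, rose by 1.53 ± 0.34 (SE, adjusted p = 0.00474).

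Of 22 endothelial transcription factors 6 fell and 2 rose (median -0.05), and with the replicate block 8 fell and 4 rose; without mutant 1, 4 rose, Gata2 and Klf2 besides. Lmo2 fell by 1.32 ± 0.11 (SE, adjusted p = 4.9e-06), and Sox18 fell by 0.995 ± 0.15 (SE, adjusted p = 0.00038). Ets2 rose by 1.24 ± 0.12 (SE, adjusted p = 1.4e-05) and Meox1 by 0.64 ± 0.11 (SE, adjusted p = 0.00099). Of 20 genes of PI3K and insulin-like growth factor signalling 5 rose and 5 fell (median 0.18), and with the replicate block 9 rose and 6 fell. Igfbp3, which binds insulin-like growth factors, measured 6035, 5613, 5508, 6667 and 5086 in the wild types and 17086, 57544, 57069, 44200.5 and 35210.5 in the mutants, with mutant 1 the lowest mutant, a change of 2.75 ± 0.27 (SE, adjusted p = 1.5e-05); the Alk1 effect was above the Eng effect by 2.53 ± 0.38 (SE, adjusted p = 4.8e-05). Irs2, an adaptor of the insulin receptor, rose by 1.15 ± 0.22 (SE, adjusted p = 0.00199), and Pik3r3, a regulatory subunit, fell by 0.85 ± 0.12 (SE, adjusted p = 0.0002).

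Among 17 secreted growth factors 7 rose and 4 fell (median 0.27). Ctgf, a matricellular protein, rose by 2.14 ± 0.36 (SE, adjusted p = 0.00081), Inhbb, an activin chain, by 1.10 ± 0.23 (SE, adjusted p = 0.00361) and Bmp2 by 0.66 ± 0.14 (SE, adjusted p = 0.00404). Ndnf measured 1679, 1419.7, 1571, 1395 and 1561 in the wild types and 316, 223, 167, 324 and 381 in the mutants, with no overlap. Tgfb2 fell by 0.92 ± 0.14 (SE, adjusted p = 0.00047), and Pdgfd fell by 0.79 ± 0.06 (SE, adjusted p = 2.4e-06). Axon guidance genes, many of which also steer vessels, rose in 7 of 21 and fell in 9 (median -0.22): Sema3f rose by 1.38 ± 0.14 (SE, adjusted p = 2.3e-05) and Plxna2 by 1.13 ± 0.19 (SE, adjusted p = 0.00092), while the changes were -1.33 ± 0.16 (SE, adjusted p = 6.7e-05) for Ntn4, -1.25 ± 0.19 (SE, adjusted p = 0.0004) for Sema3c and -0.94 ± 0.09 (SE, adjusted p = 8.3e-06) for Epha4. Their Alk1 effects were below the Smad4 effects for 9 of the 21 and above for 1.

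Targets of p53, the factor of the DNA damage response, rose in 13 of 23 genes with none lower (median 0.46). Eda2r measured 10.6, 21.5, 29.5, 29.5 and 30.4 in the wild types and 274, 242, 177, 140.2 and 154 in the mutants, without overlap, a change of 2.96 ± 0.29 (SE, adjusted p = 1.5e-05), and Phlda3 rose by 1.66 ± 0.13 (SE, adjusted p = 3.1e-06). Ccng1 rose by 0.31 ± 0.10 (SE, adjusted p = 0.0286) and Ephx1 by 0.20 ± 0.07 (SE, adjusted p = 0.0393), and neither was called by total scaling, by which 9 rose. Leaving out 1 library ended the call of Ephx1 for 7 libraries (0.0573 to 0.0929) and that of Ccng1 for wild types 2 and 5 and mutant 2 (0.0555 to 0.071). In Smad4 mutants 20 of 24 rose and 2 fell (17.2% and 15.8% of all genes tested there). In Eng mutants 19 rose and 1 fell (12.4% and 9.08%). The Alk1 effect was below the Smad4 effect for 13 and above it for 1, and the same counts held against Eng. For Eda2r the other effects were 5.16 and 4.89, for Phlda3 3.42 and 3.35, and for Ccng1 1.68 and 1.55. Tamoxifen dose, its days and the age differ between these cohorts and cannot be told apart from the gene.

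Few interferon-induced genes were called in the Alk1 mutants. Of 19 tested 1 rose, Ifit2 at 0.51 ± 0.13 (SE, adjusted p = 0.0123), and 1 fell, with a median of -0.11. Without mutant 3 none fell, in the 6 uncoded libraries none rose and 2 fell, and with the library code or the replicate block in the fit 2 rose. In Smad4 mutants 18 of 20 rose (17.2% of all genes tested there) and in Eng mutants 13 (12.4%), with none lower in either. The Alk1 effect was below the Smad4 effect for 13 and below the Eng effect for 4, and above for none. Ifit1 gave -0.16 here, 1.67 in Smad4 mutants and 1.46 in Eng mutants. Of 9 genes of antigen presentation by MHC class I none passed limma's test after adjustment, and 1 was lower at an unadjusted p under 0.05; 1 fell without mutant 3, by total scaling and in the 6 uncoded libraries.

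Glucocorticoid-responsive genes varied among the mutants, with mutant 1 near the wild types. Like the other groups, this group was chosen with earlier results of these data known. Here its own values had been seen, so its counts support nothing. Of 21 tested 13 rose and 1 fell (median 1.42), and 18 rose and 1 fell without mutant 1; 2 fell without mutant 3. In the 6 uncoded libraries 7 rose and 1 fell. Hif3a, an inhibitory HIF subunit that glucocorticoids also induce, measured 207, 181, 173, 63.8 and 76.7 in the wild types and 391, 7202, 4606, 2377 and 1194 in the mutants, a change of 4.01 ± 0.67 (SE, adjusted p = 0.00075). Mutant 1 was the nearest to the wild types and mutant 2 the farthest from them. Mt2, a metallothionein, rose by 2.89 ± 0.61 (SE, adjusted p = 0.00337), the clock gene Per1 by 2.16 ± 0.41 (SE, adjusted p = 0.0019), Fkbp5, a co-chaperone of the receptor, by 1.86 ± 0.22 (SE, adjusted p = 5.8e-05) and Sgk1, a kinase, by 1.19 ± 0.20 (SE, adjusted p = 0.00078).

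Immediate early genes, which report recent stimulation or handling, rose in 5 of 17, with none lower and a median of 0.60; without mutant 3 the count was 6, 7 without mutant 1 and 2 in the 6 uncoded libraries. Hspa1a, a heat-shock gene, measured 91.5, 110.4, 82.0, 82.6 and 87.4 in the wild types and 141, 228, 3961, 223 and 265 in the mutants. Mutant 3 was far above the other mutants, and the change of 2.04 ± 0.71 (SE, adjusted p = 0.043) was 1.19 without it (adjusted p = 0.00067). It lost its call when mutant 5 or any wild type was left out (adjusted p from 0.0542 to 0.08). Atf3 rose by 1.34 ± 0.41 (SE, adjusted p = 0.0259), and by 0.85 without mutant 3; it was not called when any of wild types 2, 4 and 5 was left out (adjusted p from 0.0506 to 0.0541). Fos and Jun did not pass, at 0.23 and 0.30.

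**Figure D5:**
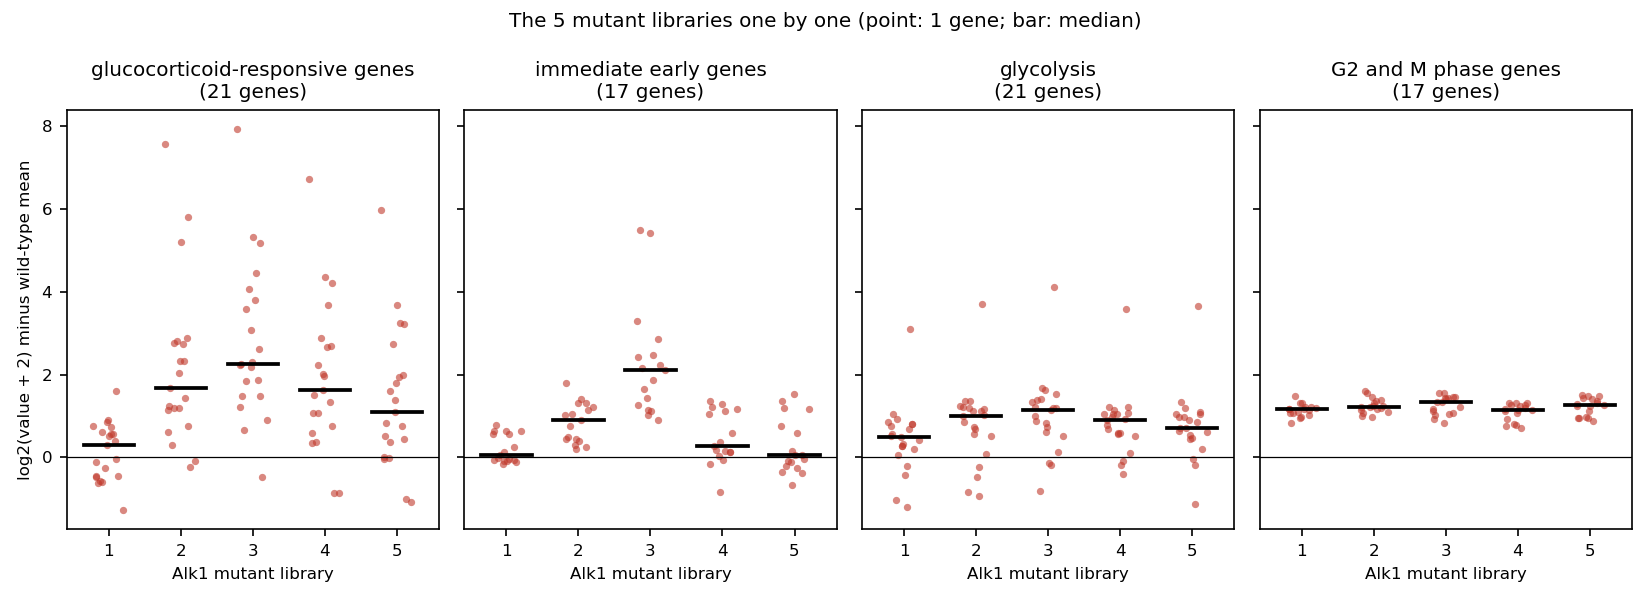
Log2 value minus the wild-type mean (vertical axis) of the genes of 4 groups in each mutant library; each point is a gene and the bar the median. The glucocorticoid-responsive genes are near 0 in mutant 1 (median 0.3066) and the immediate early genes highest in mutant 3 (median 2.12), while the G2 and M genes have medians from 1.155 to 1.342 in the 5 mutants.

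Beyond the gene groups, the largest rises and falls among called genes with a mean of at least 200 and no overlap were listed. Lrg1, a secreted glycoprotein that modifies TGF-β signalling in vessels, measured 42.6, 36.0, 31.5, 36.3 and 28.4 in the wild types and 139, 583, 1010.2, 596 and 548 in the mutants, a change of 3.73 ± 0.41 (SE, adjusted p = 3.1e-05). Mutant 1 was the lowest mutant and still above every wild type. The proprotein convertase gene Pcsk6 rose by 3.34 ± 0.30 (SE, adjusted p = 7.8e-06) and the neuropeptide gene Nts by 2.92 ± 0.22 (SE, adjusted p = 2.2e-06). Among the falls were the synaptic organizer gene Cbln2 (-3.11 ± 0.49 SE, adjusted p = 0.00052), the growth factor receptor gene Fgfr4 (-2.63 ± 0.35 SE, adjusted p = 0.00014), Sgpp2, a phosphatase of sphingosine-1-phosphate (-2.37 ± 0.20 SE, adjusted p = 5e-06), and the Wnt antagonist gene Dkk2 (-2.33 ± 0.28 SE, adjusted p = 7e-05). Plxna4, a semaphorin receptor gene, measured 1769, 1671, 1516, 1479.5 and 1565 in the wild types and 469, 370.2, 353, 404 and 399 in the mutants, with the mutants close together, a change of -2.001 ± 0.09 (SE, adjusted p = 8.1e-08). Cyfip2, Frmd5 and Crispld1 changed by -1.99, -2.12 and -1.98.

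Calls overlapped with those of the other cohorts. Over all tested genes 33.3% were called here, 33% in the Smad4 cohort and 21.5% in the Eng cohort. The shares of shared calls are to be read against these rates. Of the genes tested here, 13513 were also tested in the Smad4 cohort and 13596 in the Eng cohort. Of the genes called here, 2335 were also called in the Smad4 cohort, 51.4% of the Alk1 calls and 50.5% of the Smad4 calls, 2187 in the same direction and 148 in opposite directions. With Eng deletion 1677 were shared, 36.9% of the Alk1 calls and 54.4% of the Eng calls, 1566 in the same direction and 111 in opposite directions. The largest opposite calls against Smad4 were those of Lypd1, a GPI-anchored protein gene (-1.45 here, 3.03 there), and Gpr39, a zinc-sensing receptor gene (-1.02 and 3.20). Against Eng they included Rec8, a meiotic cohesin gene (-3.07 and 0.41), and Cemip, which degrades hyaluronan (-1.55 and 0.50). Pak6, a kinase gene, changed by -1.64 here and 1.46 in Smad4 mutants. Rab15, a trafficking GTPase gene, was above its Smad4 effect by 2.74 ± 0.52 (SE, adjusted p = 0.00042).

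Markers of other cell types were detected. Pericyte markers fell in 4 of 12 and rose in none (median -0.26), and smooth muscle markers fell in 5 of 7 (median -0.43), with Acta2 at -1.22 ± 0.21 (SE, adjusted p = 0.00087) and Myl9 at -1.13 ± 0.20 (SE, adjusted p = 0.00117). Erythroid markers fell in 4 of 5 tested (median -1.27). The 7 erythroid markers with values summed to 40600 to 68035 in the wild types and 16118 to 23863 in the mutants. Markers of border macrophages rose in 4 of 6 (median 0.55), with sums of 5790 to 9138 and 10485 to 12304. Among them Cd163, a haemoglobin scavenger receptor gene, measured 467, 403, 316, 602 and 447 in the wild types and 712, 1627, 1738, 1396 and 1201 in the mutants, a change of 1.54 ± 0.23 (SE, adjusted p = 0.00034), and its effect was above that of Eng deletion by 1.97 ± 0.64 (SE, adjusted p = 0.0369).

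Microglia markers rose in 1 of 12 (C1qb, not called when any of wild types 1 to 3 or mutants 2, 4 and 5 was left out, adjusted p from 0.0508 to 0.0681) and summed to 9634 to 20060 in the wild types and 12792 to 15390 in the mutants. With the library code in the fit, or in the 6 uncoded libraries, 3 rose, with the replicate block over all 10 libraries 4, and by total scaling none. Neuron markers fell in 2 of 10 tested, Gad1 and Stmn2. All 13 neuron markers summed to 1638 to 4333 in the wild types and 1316 to 2018 in the mutants. With the library code or the replicate block in the fit 6 fell. Of 9 astrocyte, 7 oligodendrocyte, 3 platelet, 4 lymphocyte and 5 choroid plexus markers none passed limma's test after adjustment and 1, an astrocyte marker, was lower at an unadjusted p under 0.05, although 4 oligodendrocyte markers fell with the code or the block in the fit. Without mutant 3 or by total scaling 1 astrocyte marker fell, and without mutant 1 or with the block 1 choroid plexus marker. Fibroblast markers fell in 1 of 6, Col3a1, in 2 without mutant 1 and in none in the 6 uncoded libraries. The part of these cells in the results above was not tested.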

How the data were processed

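Messenger RNA of PECAM1-captured brain endothelial cells was sequenced from TruSeq libraries, per the labels' protocols. The labels call the deposited tables raw counts, but the values carry decimals, so they were treated as a normalized signal per gene that the authors deposited. The build was mm10, per the submitters' processing notes; which tools aligned, counted and normalized the reads is not given in the sources used here. Columns matched samples by genotype group only, so libraries are numbered in column order.

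The Alk1 table was fitted alone by limma (version 3.58.1, R version 4.3.3) with its variance trend over intensity, on log2(value + 2), on genes at 20 or more in at least 5 libraries, with Benjamini-Hochberg adjustment; all adjusted p-values come from limma and the test was two-sided. Had the tables held counts, a count model was planned. Fold changes on this scale understate the change of low genes. Differences between cohorts came from a joint fit of 30 untreated libraries by 6 group means, each cohort against its own wild types; 24 date-like gene names were left out there. The scripts were tested on simulated data.

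The members and the 53 gene lists (39 pathway and 14 cell marker lists, 771 genes) were chosen with earlier results of these data known. Named genes were all members of the receptor, SMAD, BMP9 target and angiopoietin lists, up to 6 called and 2 uncalled members of each other list, the 12 largest rises and falls, and the largest differences, opposite calls and spreads among mutants; a few others that complete a count or a group were named after their values were seen. Some genes that the rule takes are not reported here. Libraries 1 to 3 of each genotype share replicate numbers in their names. Their deviations from the group means correlated weakly by number (0.157, 0.188 and 0.108), each best with its own number. A pairing by number is therefore possible but not established, and the main fit does not use it. Promoter sequences are RefSeq's, on GRCm38.p6. Alternatives covered the pseudocount, filter, scaling, trend, code, block and each library left out.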

Additional observations from a re-analysis of the deposited data

Results flagged for a closer look

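Among 142 groups of 5 values examined, 9 held a library far from the others, where chance flags about 1 group in 20. The number flagged is near that rate, so the values below are descriptions only. Mutant 1 was the high library among mutants for 4 genes that fell: Cbln2 at 414.82, Crispld1 at 364.11, Dkk2 at 604.32 and Sgpp2 at 298.72. Mutant 2 was high for Eng at 46981.18. Mutant 3 was high for Hspa1a at 3961.16 and low for the choroid plexus markers, whose median lay at -1.957 from the wild-type mean (log2). Among wild types, library 1 stood apart for Hey1 at 2002.23 and library 5 for Id4 at 112.87.

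The Alk1 effect differed from the Smad4 effect, by the test of the difference, for 2340 genes. Large differences (log2) on the positive side were 5.034 for Zbtb16, a transcription factor gene induced by glucocorticoids, 3.384 for Lcn2, 2.737 for Rab15 and 2.716 for Spp1 (osteopontin). On the negative side they were -3.105 for Pak6, -2.88 for Col18a1 and -2.451 for Lfng. Genes called in opposite directions included 4930412O13Rik at 4.009, Lypd1 at -4.477, Gpr39 at -4.22 and Chad, a cartilage matrix protein gene, at -3.581. Ccdc60 differed by -3.964, but it reached the filter in the Alk1 table through the wild types. Its value is a description and not a test result.

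Against Eng the effect differed for 2135 genes. The positive differences were 6.749 for Zbtb16, 4.069 for Hif3a, 3.616 for Map3k6, 3.321 for Lrg1 and 3.318 for Kcne3. The negative ones were -2.625 for Gkn3, -2.405 for Fgfr4, -2.261 for Cbln2, -2.2 for Ndnf and -2.123 for Dkk2. Opposite calls were those of Rec8 at -3.481, Gxylt2 at -2.366, Cemip at -2.056, Duox2 at 2.755 and Paqr5, a progestin receptor gene, at 1.996. Gxylt2 lost its Alk1 call when any of 7 of the 10 libraries was left out (adjusted p from 0.0574 to 0.0821). For Zbtb16, Hif3a, Map3k6 and Lcn2 mutant 1 lay near the wild types, and the part of this library in these differences was not tested.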

How the results depend on the processing

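The count of called genes, 4541, stayed within 1.5 times under all but 2 of the alternatives run. With the 6 libraries without a code it was 1993 (1148 higher and 845 lower), and with the replicate block in the 6 numbered libraries 2155 (1298 higher and 857 lower); both used fewer samples. The replicate block over all 10 libraries, added after seeing the data, gave 5953. Scaling by the median of ratios between libraries left the calls at 4541 (2392 higher and 2149 lower). The deposited values thus appear to be on that scale already, and this alternative checks nothing. Leaving out 1 library gave 3853 (without wild type 1) to 4869 (without mutant 1). For the differences these ranges were 2034 to 2785 of 2340 against Smad4 and 1651 (without mutant 3) to 2770 (without mutant 1) of 2135 against Eng. With total scaling the share of higher genes among differences from Eng was 38.8% rather than 53.7%, and the median difference -0.11 rather than -0.02. Quantile normalization gave 2124 higher and 2431 lower calls. The 6 uncoded libraries, being fewer, also lowered most group counts not given beside their group: rises went from 6 to 3 for caveolae and vesicle transport, 8 to 5 for matrix, 8 to 5 for proteases, 7 to 4 for growth factors and for axon guidance, 13 to 8 for p53 targets, 6 to 2 for ribosomal proteins, 5 to 2 for junctions and for PI3K signalling and 4 to 1 for the respiratory chain and for pyruvate entry; falls went from 3 to 0 for proteases, 6 to 2 for transcription factors, 4 to 2 for flow-responsive genes and pericyte markers, 5 to 3 for Notch, PI3K signalling and smooth muscle markers and 2 to 1 for the VEGF group. Of 250 called genes that the naming rule takes, none reversed; 59 lost their call in the 6 uncoded libraries, 54 with the replicate block there, and at most 25 under any other alternative. Acvrl1 ranged from -0.25 to -0.07 and passed the threshold in 2 of 25 alternatives, with each library divided by its total and with quantile normalization (adjusted p = 0.0085, limma). Depth is known only roughly, so calls of genes near the filter are the least certain.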
